A study of Rattus norvegicus with 12 samples.

Results

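Cytochrome P450 families 1 to 4 are the heme monooxygenases that carry most of the oxidation of drugs, steroids and fatty acids in the liver. They were represented here by 33 of the 13215 genes named on the arrays. The genes were chosen by name alone: a probe set had to carry exactly 1 symbol in the platform annotation, and that symbol had to begin with Cyp, a family digit from 1 to 4, a subfamily letter and a digit. Each of the 33 genes had 1 such probe set. Family 1 had 3 genes, family 2 had 18, family 3 had 4 and family 4 had 8. A further 12 probe sets carry several symbols that include these families, such as Cyp2d1 with Cyp2d5 and Cyp4a2 with Cyp4a3, and were not used here because no single gene can be named from them. For that reason Cyp2b2, Cyp2c6, Cyp2a2, Cyp2j3 and Cyp4a1 were not analysed here. Cyp2b1, Cyp2c7, Cyp2s1, Cyp3a9 and Cyp3a62, and the heme synthesis gene Alas1, were not matched to a probe set and were likewise not analysed here.

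Liver RNA came from 12 Sprague Dawley rats, an outbred strain, with 1 array per rat and 4 rats per diet. For 7 days the rats ate a control diet, a diet with naproxen at 400 mg per kg of diet, or a diet with NO-naproxen at 550 mg per kg of diet. Naproxen is a nonsteroidal anti-inflammatory drug that inhibits cyclooxygenases, and NO-naproxen is a derivative of it that releases nitric oxide. The study compared each drug diet with control, and the labels give neither the sex nor the age of the rats.

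P450 enzymes sit in the endoplasmic reticulum and take electrons from a reductase encoded by Por. Many are switched on by foreign compounds through receptors that act as transcription factors: the aryl hydrocarbon receptor (Ahr) for family 1, the constitutive androstane receptor (Nr1i3) for subfamily 2b, the pregnane X receptor (Nr1i2) for subfamily 3a, and peroxisome proliferator-activated receptor alpha (Ppara) for subfamily 4a. In rat liver several genes of subfamilies 2a, 2c and 3a also differ between the sexes under the control of growth hormone.

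Levels are given as log2(intensity + 16) of the deposited intensities, and a difference is the difference of group means on that scale, which understates changes of dim probe sets. Where 2 differences from control are given for a gene, that with naproxen comes first. Median intensities of the arrays ran from 89.8 to 118, and the median standard error of a difference was 0.21 log2 units. Of the 33 probe sets, 29 had a mean above 6.44, the 95th percentile of 970 olfactory and vomeronasal receptor probe sets. The other 4, Cyp1a1, Cyp1b1, Cyp2b21 and Cyp2c13, lay within that receptor range, as did 38.0% of all probe sets. The spread of signals within an array was wider on average in drug-fed rats: the interquartile range averaged 2.10 ± 0.19 in control rats, 2.34 ± 0.16 in naproxen rats and 2.36 ± 0.23 in NO-naproxen rats (log2 units, SD, n = 4). Control replicates 3 and 4 had the 2 narrowest spreads of the 12 arrays. In bulk liver, fewer cells of a type and less RNA per cell cannot be told apart, and a p-value here measures the spread between these rats.

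The differences past the study's criterion were in Cyp3a2, Cyp3a18 and Cyp2a3. The promoters of these genes and of Cyp3a23-3a1 are shown because nuclear receptors act on subfamily 3a through paired 6-base half-sites. RefSeq promoters in build GRCr8 were matched for 30 of the 33 genes. The runs below are the 250 bases before the annotated start, 5′ to 3′ on the gene's strand, with every half-site TGAACT or TGACCT, on either strand, in capitals. Cyp3a18 lies at chr12:13994062-13994311 on the plus strand, Cyp3a2 at chr12:14343858-14344107 and Cyp3a23-3a1 at chr12:14398804-14399053 on the minus strand, and Cyp2a3 at chr1:91299334-91299583 on the plus strand.
Cyp3a18: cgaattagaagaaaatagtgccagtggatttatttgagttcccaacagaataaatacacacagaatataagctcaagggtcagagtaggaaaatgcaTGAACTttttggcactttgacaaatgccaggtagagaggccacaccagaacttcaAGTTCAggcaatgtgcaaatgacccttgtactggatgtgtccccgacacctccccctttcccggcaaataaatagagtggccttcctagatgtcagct
Cyp3a2: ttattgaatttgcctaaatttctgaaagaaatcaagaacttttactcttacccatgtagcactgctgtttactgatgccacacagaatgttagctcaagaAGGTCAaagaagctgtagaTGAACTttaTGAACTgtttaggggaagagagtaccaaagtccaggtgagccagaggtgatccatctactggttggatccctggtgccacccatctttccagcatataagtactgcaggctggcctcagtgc
Cyp3a23-3a1: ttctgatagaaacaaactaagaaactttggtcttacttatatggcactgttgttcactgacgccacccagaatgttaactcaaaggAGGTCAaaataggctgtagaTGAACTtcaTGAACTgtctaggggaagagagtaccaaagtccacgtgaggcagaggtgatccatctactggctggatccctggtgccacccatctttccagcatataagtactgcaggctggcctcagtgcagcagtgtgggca
Cyp2a3: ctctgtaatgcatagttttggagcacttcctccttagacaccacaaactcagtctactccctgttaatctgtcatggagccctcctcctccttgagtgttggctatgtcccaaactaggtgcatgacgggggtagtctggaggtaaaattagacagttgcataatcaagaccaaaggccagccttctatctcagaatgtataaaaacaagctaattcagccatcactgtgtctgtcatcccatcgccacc

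The promoters of Cyp3a2 and Cyp3a23-3a1 each held a direct repeat of the half-site with a spacing of 3 bases (TGAACTNNNTGAACT, with TGACCT allowed in place of either TGAACT, both strands searched). In Cyp3a2 it was TGAACTttaTGAACT, from 131 to 117 bases before the start. In Cyp3a23-3a1 it was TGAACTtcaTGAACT, from 144 to 130 bases before the start. Such a repeat occurred in 13 of 33469 promoter windows of the same length, or 0.0388%. It was found in these 2 of the 30 promoters matched. Direct repeats with a spacing of 4 and everted repeats with a spacing of 6 were in 0 of the 30, against 0.0149% and 0.00299% of all windows. Cyp3a18 held 2 single half-sites and Cyp2a3 held 0. The Cyp3a2 and Cyp3a23-3a1 windows were 79.2% identical over 265 aligned columns, and the Cyp3a2 and Cyp3a18 windows 52.6%. Cyp3a2 and Cyp3a23-3a1 are next to each other on chromosome 12 with 0 protein-coding genes between them, as are Cyp3a18 and Cyp3a73. A motif match is a description of the letters and not evidence of binding.

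The genes furthest above control in drug-fed rats were Cyp3a18 and Cyp3a2. Differences of the 33 genes from control ran from -0.49 to 0.89 with naproxen and from -0.51 to 1.13 with NO-naproxen. A small difference among so few rats does not show that a gene was unchanged. No gene passed an adjusted p of 0.05 in limma (Benjamini-Hochberg over 19418 probe sets) in any comparison, where the share of all probe sets that passed was 0% each time. The smallest adjusted p among the 33 was 0.381 for naproxen and 0.468 for NO-naproxen against control. The study selected genes at a p under 0.05 without adjustment together with a change of at least 1.5-fold. By that criterion 3 genes were higher with naproxen and 0 lower, where 0.875% of all probe sets were higher and 4.97% lower. With NO-naproxen 2 genes were higher and 0 lower by that criterion, against 1.78% and 2.02% of all probe sets.

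At an unadjusted p under 0.05 alone, naproxen had 3 genes higher and 0 lower (3.16% and 9.50% of all probe sets). NO-naproxen had 4 higher and 1 lower (5.49% and 4.86%). All 4 naproxen rats lay above all 4 controls for Cyp2a3, Cyp2j4, Cyp3a18 and Cyp3a23-3a1, where 2.09% of all probe sets were separate in that direction. All 4 NO-naproxen rats lay above all controls for Cyp2a1 and Cyp3a23-3a1, where 2% were. The median difference over the 33 genes was -0.0023 with naproxen and 0.11 with NO-naproxen, against -0.03 and 0.00044 over all probe sets. That background depends on dim probe sets. Without the dimmest 30% of probe sets the medians were -0.0019 and 0.11 over the P450 genes left, against 0.03 and 0.07 over all probe sets left. Differences were above 0 for 15 of 33 genes with naproxen (45.9% of all probe sets) and for 21 of 33 with NO-naproxen (50.1%). These comparisons share their control rats. Centring each array on its median adds 0.12 to every difference with naproxen and 0.07 with NO-naproxen, so small negative values change sign. With centring 3 of the 33 genes were higher by the criterion with naproxen, 3 with NO-naproxen, where Cyp2r1 at 0.59 was the gene added, and 0 were lower. Over all probe sets it gave 463 higher and 483 lower with naproxen, against 170 and 965 without centring, and 632 higher and 266 lower with NO-naproxen, against 346 and 392.

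**Figure D1:**
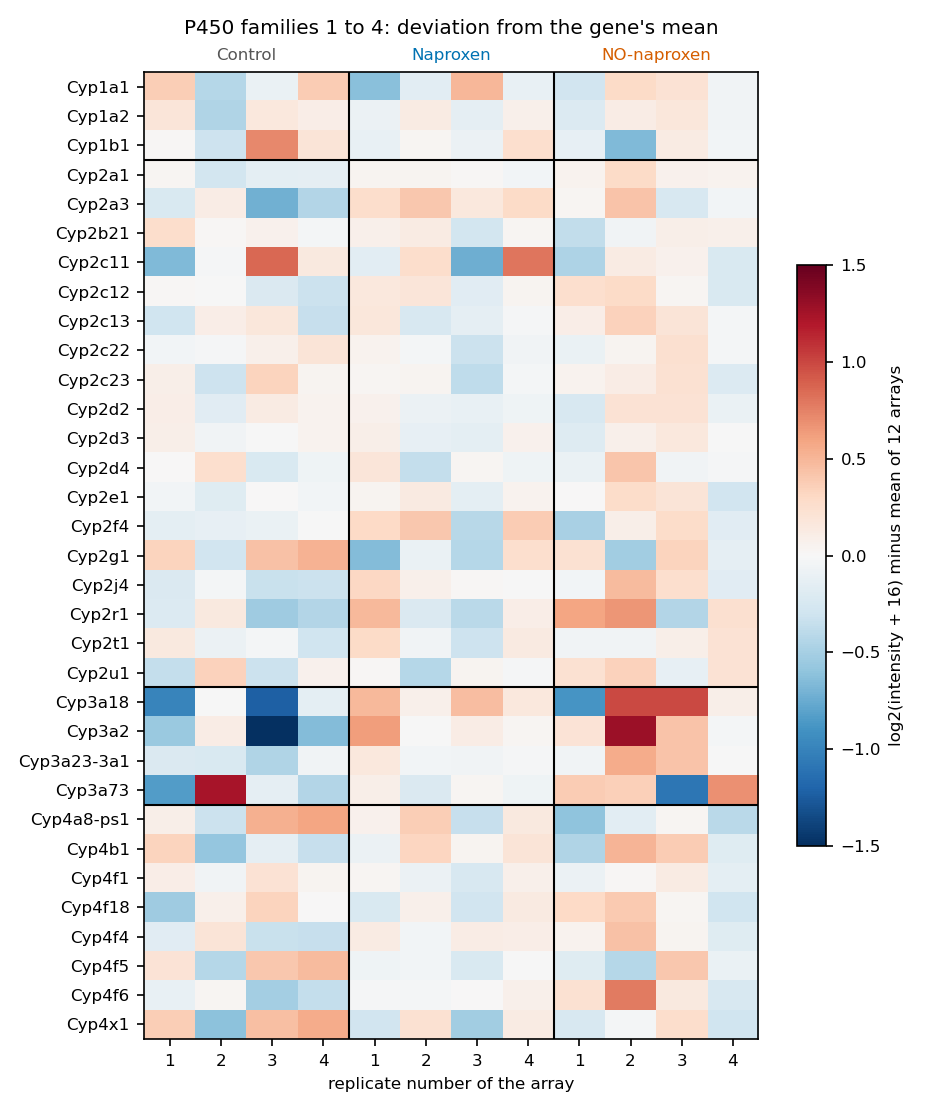
Heat map of the 33 genes (rows, grouped by family with black lines) on the 12 arrays (columns, by diet and replicate number); colour is log2(intensity + 16) minus the gene's mean over 12 arrays, clipped at 1.5 to either side. The strongest colours are in the subfamily 3a rows, with Cyp3a2 lowest at 5.84 in control replicate 3 and highest at 8.66 in NO-naproxen replicate 2.

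**Figure D2:**
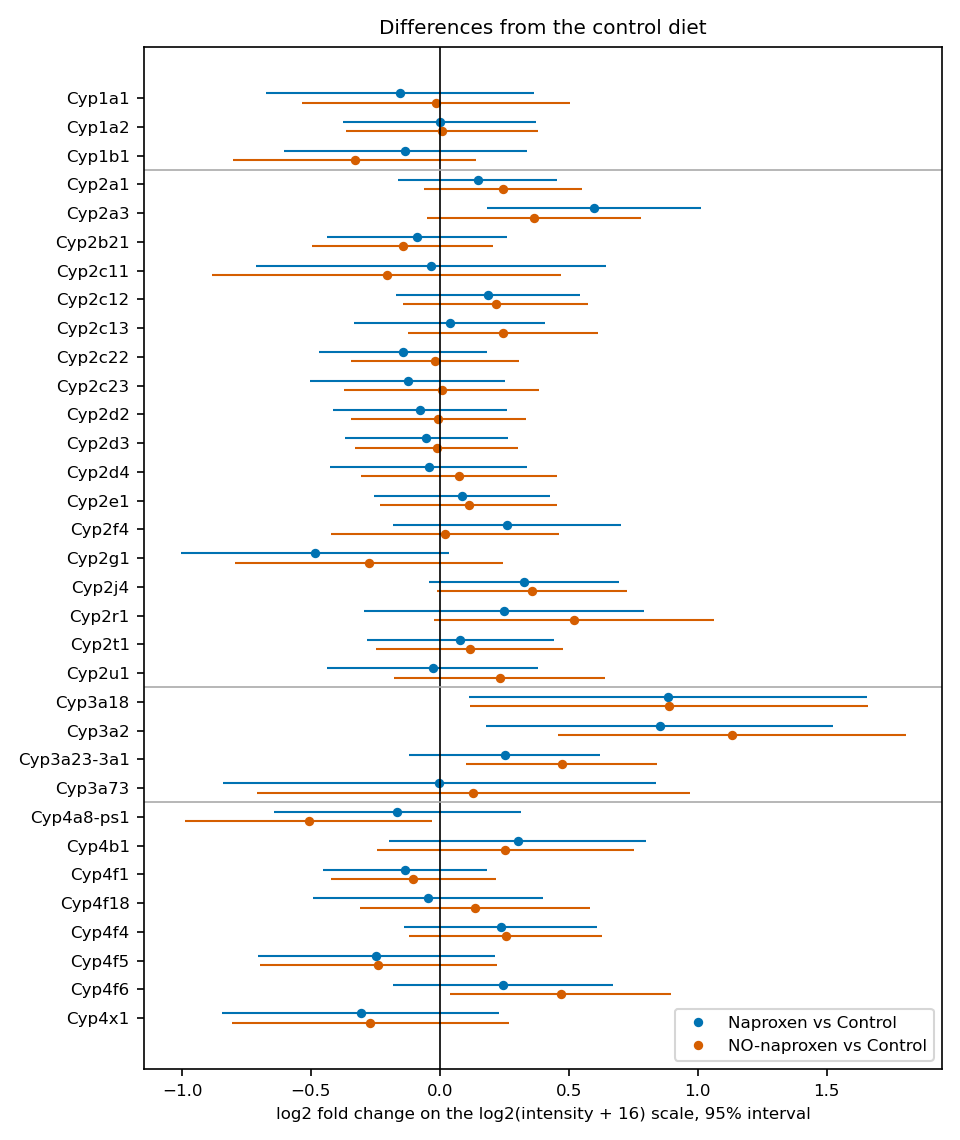
Difference from control for each of the 33 genes (points, blue for naproxen and orange for NO-naproxen) with the 95% interval of the limma fit (lines), in log2 units. Intervals of Cyp3a18 and Cyp3a2 lie above 0 for both diets, those of Cyp2a3 for naproxen and those of Cyp3a23-3a1 and Cyp4f6 for NO-naproxen, and that of Cyp4a8-ps1 for NO-naproxen lies below 0.

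Subfamily 3a, whose enzymes hydroxylate steroids and many drugs, had the largest shifts, with medians of 0.55 with naproxen and 0.68 with NO-naproxen over its 4 genes. The medians of the other families were -0.13 and -0.01 for family 1, 0.0049 and 0.09 for family 2, and -0.09 and 0.02 for family 4, naproxen first. Cyp3a2 encodes a testosterone hydroxylase known as male-predominant in adult rats. Its level was 6.83, 7.49, 5.84 and 6.73 in controls, 8.01, 7.37, 7.50 and 7.41 with naproxen, and 7.59, 8.66, 7.81 and 7.35 with NO-naproxen, in replicate order. Control replicate 2 overlapped both drug groups, and control replicate 3 lay within the receptor range. Cyp3a2 was higher than control by 1.13 ± 0.32 with NO-naproxen (SE, 2.19-fold, 95% interval 0.46 to 1.81, adjusted p = 0.468). With naproxen it was higher by 0.85 ± 0.32 (SE, 1.80-fold, 95% interval 0.18 to 1.53, adjusted p = 0.381). Both differences met the study's criterion and missed the adjusted threshold.

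Cyp3a18, another steroid hydroxylase of the subfamily, was at 9.36, 10.34, 9.12 and 10.20 in controls, 10.83, 10.42, 10.81 and 10.50 with naproxen, and 9.47, 11.34, 11.33 and 10.44 with NO-naproxen. Every naproxen rat was above every control, while NO-naproxen replicate 1 lay among the controls. The difference was 0.89 ± 0.36 with either diet (SE, 1.85-fold, adjusted p = 0.383 with naproxen and 0.468 with NO-naproxen), with 95% intervals of 0.11 to 1.66 and 0.12 to 1.66, and met the study's criterion. Cyp3a23-3a1, the subfamily member known for strong induction through the pregnane X receptor, stood at 12.23, 12.22, 12.00 and 12.39 in controls. It was at 12.61, 12.41, 12.40 and 12.43 with naproxen and 12.40, 13.01, 12.88 and 12.44 with NO-naproxen. Neither drug group overlapped the controls, but the margin was narrow. The highest control was at 12.394, and the lowest rats were at 12.398 with naproxen and 12.397 with NO-naproxen. Cyp3a23-3a1 was 0.47 ± 0.17 above control with NO-naproxen (SE, 1.39-fold, 95% interval 0.10 to 0.84, adjusted p = 0.468), short of the 1.5-fold bound, and 0.25 ± 0.17 above with naproxen (SE, 95% interval -0.12 to 0.62).

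Cyp3a73 was at -0.0023 with naproxen and 0.13 with NO-naproxen, with 95% intervals of -0.84 to 0.84 and -0.71 to 0.97 that leave its direction unsettled. With 1 array left out Cyp3a73 ran from -0.27 to 0.42 and from -0.14 to 0.56. The upper ends of both ranges came without control replicate 2, its highest control at 10.91, and the lower ends without control replicate 1, its lowest. Its controls alone ranged from 8.83 to 10.91 and its NO-naproxen rats from 8.59 to 10.36, while the naproxen rats stayed between 9.45 and 9.76. The genes with the largest SD among controls were Cyp3a73 (0.90), Cyp3a2 (0.68) and Cyp2c11 (0.63). Cyp3a73, Cyp3a18, Cyp2c11 and Cyp3a2 had the 4 largest residual SDs of the 33, from 0.70 to 0.54, and each exceeded that of at least 95.5% of all probe sets. Cyp3a18 and Cyp3a73 did not vary together in every rat: NO-naproxen replicate 3 had 11.33 and 8.59, and NO-naproxen replicate 1 had 9.47 and 10.05. The probes of near-identical P450 genes may read each other's transcripts, so values of single 3a genes are uncertain to that extent.

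**Figure D3:**
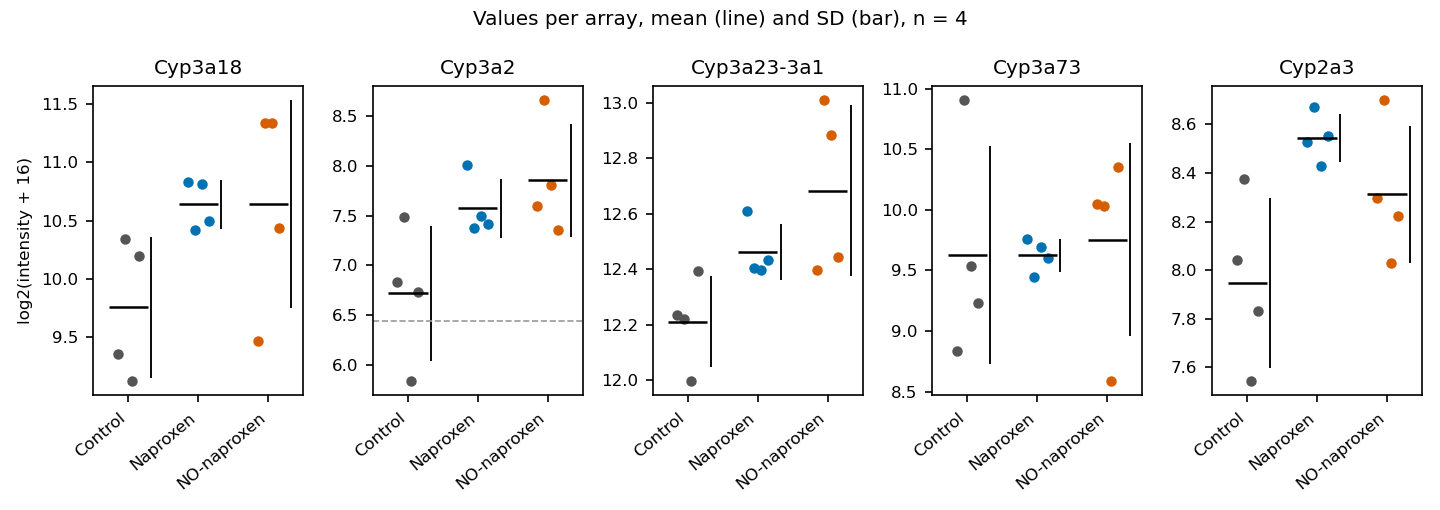
Level, log2(intensity + 16), of the 4 subfamily 3a genes and Cyp2a3 in each rat (points) by diet, with the group mean (horizontal line) and SD (vertical bar, n = 4); each panel has its own axis, and the dashed line at 6.44 in the Cyp3a2 panel is the upper bound of the receptor range. For Cyp3a18, Cyp3a23-3a1 and Cyp2a3 all naproxen points lie above all control points, while Cyp3a73 overlaps throughout.

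The values of Cyp3a2 also moved with the spread of the arrays. With the interquartile range of each array as a covariate, Cyp3a2 was at 0.40 with naproxen and 0.64 with NO-naproxen, against 0.85 and 1.13 without it, and met the criterion with NO-naproxen but not with naproxen. Cyp3a18 was at 0.78 and 0.77 and Cyp3a23-3a1 at 0.21 and 0.43 with the covariate, so Cyp3a18 no longer met the criterion although its size moved little. Cyp3a18 also missed it with quantile normalization, at 0.77 with naproxen and 0.71 with NO-naproxen. With array weights it missed it with NO-naproxen, at 0.63, and met it with naproxen, at 0.97. Without control replicates 3 and 4, Cyp3a2 was at 0.41 and 0.70 and Cyp3a18 at 0.79 and 0.79, and neither met it. That fit kept only control replicates 1 and 2 as controls, so a lost call may also come from fewer rats. All of these values stayed above 0 in both comparisons. Array spread was wider on average in drug-fed rats, so a difference by diet and one by array spread cannot be told apart here.

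Single rats decided part of these calls. Cyp3a2 with NO-naproxen met the criterion with any 1 rat of the compared groups left out, at 0.84 to 1.39. With naproxen it missed the criterion without naproxen replicate 1 (0.71) or control replicate 3 (0.56). Cyp3a18 missed it with naproxen without naproxen replicate 1 (0.82) or 3 (0.83), and without control replicate 1 (0.75) or 3 (0.67). With NO-naproxen it missed it without NO-naproxen replicate 2 (0.66) or 3 (0.66), and without control replicate 1 (0.76) or 3 (0.68), while leaving out NO-naproxen replicate 1 gave 1.28.

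**Figure D4:**
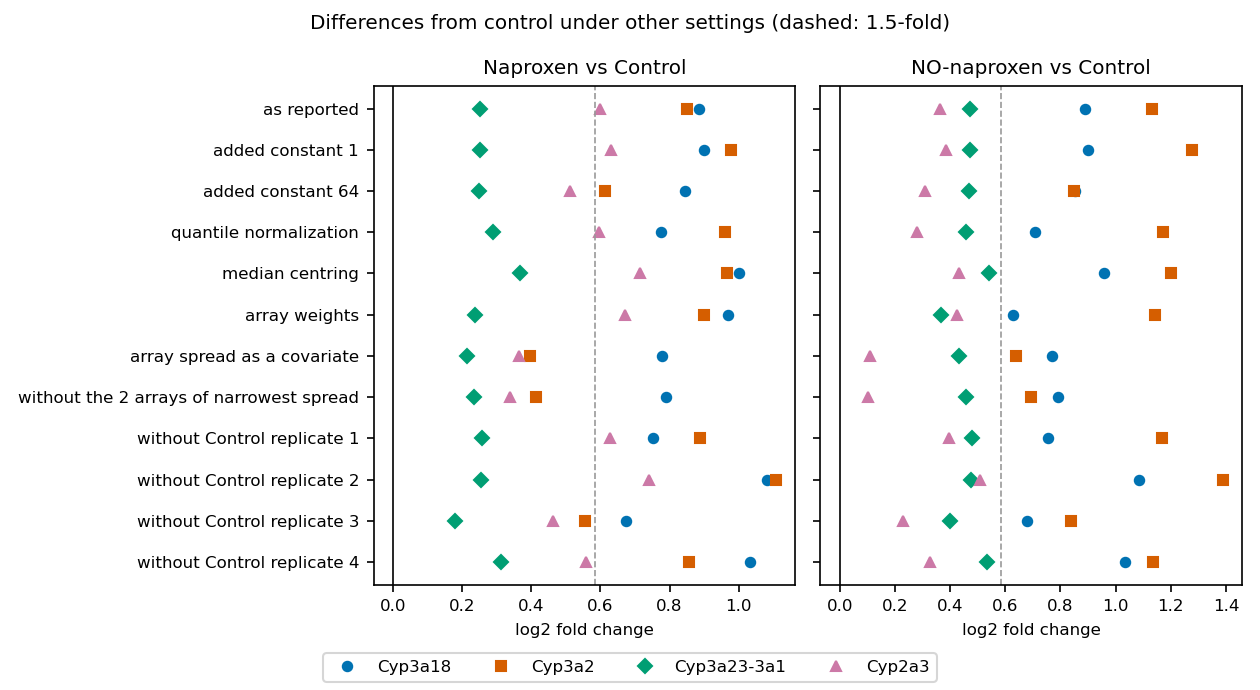
Difference from control, in log2 units, of Cyp3a18, Cyp3a2, Cyp3a23-3a1 and Cyp2a3 (markers) as reported and under other settings (rows), for naproxen (left) and NO-naproxen (right); the dashed line is 1.5-fold. All points lie above 0, and those of Cyp3a2 and Cyp2a3 move left in the rows that account for array spread, to 0.40 and 0.36 with naproxen and 0.64 and 0.11 with NO-naproxen.

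In family 2 the difference past the study's criterion was that of Cyp2a3 with naproxen. Cyp2a3, a steroid and nicotine oxidase known chiefly from the respiratory tract, was at 8.04, 8.38, 7.54 and 7.83 in controls and 8.53, 8.67, 8.43 and 8.55 with naproxen. The naproxen rats lay close together and all above the controls. The difference was 0.60 ± 0.20 (SE, 1.51-fold, 95% interval 0.18 to 1.01, adjusted p = 0.381), just past the 1.5-fold bound. With NO-naproxen the rats were at 8.30, 8.70, 8.03 and 8.22 and overlapped the controls, at 0.36 ± 0.20 (SE, 95% interval -0.05 to 0.78). With array spread as a covariate Cyp2a3 was at 0.36 with naproxen, and without control replicates 3 and 4 at 0.34, and it met the criterion in neither. It also stayed short of 1.5-fold without control replicate 3 (0.46), control replicate 4 (0.56) or naproxen replicate 2 (0.56). Its neighbour on chromosome 1, Cyp2a1, a testosterone hydroxylase of rat liver, was at 12.86, 12.56, 12.68 and 12.70 in controls and 12.88, 13.12, 12.90 and 12.88 with NO-naproxen. Those groups did not overlap, but the difference was small, 0.24 ± 0.14 (SE, 95% interval -0.06 to 0.55), and with naproxen it was 0.15 (-0.16 to 0.45).

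The subfamily 2c genes, which include steroid hydroxylases known to differ between male and female rats, had no difference whose 95% interval left out 0. Cyp2c12, known as a female-predominant gene, averaged 12.40 ± 0.16 in controls, 12.59 ± 0.16 under naproxen and 12.62 ± 0.24 under NO-naproxen (SD, n = 4). The male-specific genes Cyp2c11 and Cyp2c13 were dim: Cyp2c11 averaged 7.12 over 12 arrays, with single rats from 6.39 to 7.98, and Cyp2c13 averaged 5.49, within the receptor range. Differences of Cyp2c12 were 0.19 and 0.22, and those of Cyp2c11 were -0.03 and -0.21, naproxen first, with wide intervals for Cyp2c11 of -0.71 to 0.64 and -0.88 to 0.47. Cyp2c23, an arachidonic acid epoxygenase, was at -0.12 and 0.0062, Cyp2c13 at 0.04 and 0.25, and Cyp2c22 at -0.14 and -0.02. The intervals of Cyp2c22 reached from -0.47 to 0.18 with naproxen and from -0.34 to 0.31 with NO-naproxen.

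Cyp2j4, of the epoxygenase subfamily 2j, was at 10.08, 10.27, 9.97 and 9.98 in controls and 10.61, 10.38, 10.32 and 10.30 with naproxen, which did not overlap. With NO-naproxen it was at 10.27, 10.77, 10.55 and 10.13. The differences were 0.33 ± 0.17 and 0.36 ± 0.17 (SE), with 95% intervals of -0.04 to 0.69 and -0.01 to 0.72. Cyp2r1, a vitamin D hydroxylase, was 0.52 above control with NO-naproxen (95% interval -0.02 to 1.06) and 0.25 above with naproxen (-0.29 to 0.79), with NO-naproxen rats between 7.82 and 8.92. Cyp2g1, known from the olfactory mucosa, was the gene furthest below control with naproxen, at -0.49 (95% interval -1.01 to 0.03), and at -0.27 with NO-naproxen (-0.79 to 0.25). Its controls were at 7.10, 6.48, 7.21 and 7.29, so replicate 2 lay among the naproxen rats at 6.12, 6.67, 6.34 and 7.02.

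None of the remaining genes of family 2 met the criterion in either comparison with control. Cyp2e1, the ethanol-inducible P450, was at 13.12, 12.98, 13.16 and 13.12 in controls and differed by 0.09 and 0.11, with intervals from -0.26 to 0.43 and from -0.23 to 0.45. The debrisoquine hydroxylase subfamily 2d, with Cyp2d2, Cyp2d3 and Cyp2d4, differed by -0.08 to -0.04 with naproxen and by -0.01 to 0.07 with NO-naproxen. Cyp2f4, known from lung, was at 9.15, 9.17, 9.19 and 9.29 in controls. Under naproxen replicate 3 was at 8.88, below every control, and each of the other naproxen rats lay above every control, the highest at 9.70. The differences of Cyp2f4 were 0.26, with a 95% interval of -0.18 to 0.70, and 0.02, and the first was 0.45 without naproxen replicate 3. Cyp2t1 was at 0.08 and 0.12, Cyp2u1, a fatty acid hydroxylase, at -0.03 and 0.23, and Cyp2b21, within the receptor range, at -0.09 and -0.15.

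Family 1, the targets of the aryl hydrocarbon receptor, differed from control by less than the rats of a group differed among themselves. Cyp1a2, the member expressed constitutively in liver, was at 12.25, 11.61, 12.23 and 12.16 in controls, 11.98, 12.18, 11.93 and 12.14 under naproxen and 11.86, 12.17, 12.24 and 12.01 under NO-naproxen. Apart from control replicate 2 these values spanned a narrow range, and the differences were -0.0014 and 0.0082 with intervals from -0.37 to 0.37 and from -0.36 to 0.38. The inducible genes Cyp1a1 and Cyp1b1 lay within the receptor range on average. Cyp1a1 averaged 6.17 ± 0.39 in controls, 6.02 ± 0.47 under naproxen and 6.16 ± 0.26 under NO-naproxen (SD, n = 4). The differences of Cyp1a1 were -0.16 and -0.01. Cyp1b1 was at -0.13 with naproxen (95% interval -0.61 to 0.34) and -0.33 with NO-naproxen (-0.80 to 0.14).

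Family 4 hydroxylates the ends of fatty acids and eicosanoids. In the fit as reported none of its 8 genes met the study's criterion. Of all probe sets 0.875% and 1.78% were higher by it and 4.97% and 2.02% lower, naproxen first. With NO-naproxen 1 gene was higher and 1 lower at an unadjusted limma p under 0.05, against 5.49% and 4.86% of all probe sets. Cyp4f6, of a subfamily that oxidises leukotrienes and other eicosanoids, was at 8.21, 8.34, 7.80 and 7.95 in controls and 8.54, 9.10, 8.46 and 8.08 with NO-naproxen. Only NO-naproxen replicate 4 lay among the controls. Cyp4f6 was higher by 0.47 ± 0.20 with NO-naproxen (SE, 1.38-fold, 95% interval 0.04 to 0.90, adjusted p = 0.468), and was at 0.24 ± 0.20 with naproxen (SE, -0.18 to 0.67). With array spread as a covariate the NO-naproxen value was 0.24, and without NO-naproxen replicate 2 it was 0.28. Without NO-naproxen replicate 4 it was 0.62 and met the criterion. Cyp4a8-ps1, annotated as a pseudogene, was close to the receptor range, at 6.58, 6.17, 7.02 and 7.09 in controls and 5.89, 6.33, 6.52 and 6.08 with NO-naproxen. It differed by -0.51 ± 0.23 (SE, 95% interval -0.99 to -0.03, adjusted p = 0.468), and by -0.22 with array spread as a covariate. The same covariate turned its naproxen value from -0.17 to 0.10. With NO-naproxen Cyp4a8-ps1 met the criterion, as lower, with an added constant of 1 (-0.61) or with array weights (-0.69). It also met it without NO-naproxen replicate 3 (-0.61) or control replicate 2 (-0.69).

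Of the other genes of family 4, Cyp4f4 was at 0.24 and 0.25, naproxen first, and Cyp4f5 at -0.25 and -0.24. Cyp4f1 was at -0.14 and -0.10, and Cyp4f18, a leukotriene hydroxylase of leukocytes, at -0.05 and 0.14. Cyp4b1, known chiefly from lung, was at 0.30 and 0.25, and Cyp4x1, known chiefly from brain, at -0.31 and -0.27. The 95% intervals of these 6 genes all held 0 in both comparisons with all arrays. Control replicate 2 was the lowest control for Cyp4x1 and Cyp4f5. Without it Cyp4x1 was at -0.58 and -0.54 and Cyp4f5 at -0.44 and -0.44, lower at an unadjusted p under 0.05 but short of 1.5-fold. Without the 2 arrays of narrowest spread Cyp4x1 was at 0.0057 and 0.04, and Cyp4f5 at 0.03 and 0.04. No 4a hydroxylase other than the pseudogene was measured by a probe set of its own symbol.

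The drug diets were also set against each other, with different doses by weight, so the comparison is between diets and not between compounds at a matched dose. None of the 33 genes passed an unadjusted p of 0.05, where 1.28% of all probe sets were higher with NO-naproxen and 0.644% lower. None met the study's criterion (0.427% and 0.144%) or the adjusted threshold (0%). The gene with the smallest p was Cyp4a8-ps1, at -0.34 with a 95% interval from -0.82 to 0.14. For Cyp3a2, NO-naproxen minus naproxen was 0.28 with a 95% interval from -0.39 to 0.95, for Cyp3a18 it was 0.0028 (-0.77 to 0.77), for Cyp3a23-3a1 0.22 (-0.15 to 0.59) and for Cyp2a3 -0.23 (-0.65 to 0.18). These intervals allow differences in either direction and do not show that the diets act alike. Cyp2a1 was separate, with all 4 NO-naproxen rats above all 4 naproxen rats, as were 0.644% of probe sets, at a difference of 0.10 with an interval from -0.21 to 0.41. The 2 groups nearly touched, with the lowest NO-naproxen rat at 12.8782 and the highest naproxen rat at 12.8771.

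Of 28 listed regulators of P450 genes, 25 were measured. With naproxen 2 met the study's criterion and were higher, with NO-naproxen 3, and 0 were lower in either comparison. Of all probe sets 0.875% were higher and 4.97% lower by that criterion with naproxen, and 1.78% and 2.02% with NO-naproxen. Nr1i3, the constitutive androstane receptor, was at 9.12, 9.45, 8.83 and 9.36 in controls, 9.95, 9.96, 10.50 and 9.79 under naproxen and 9.05, 10.64, 9.85 and 9.89 under NO-naproxen. It was higher by 0.86 ± 0.27 and 0.67 ± 0.27 (SE, adjusted p = 0.381 and 0.468), and every naproxen rat was above every control. With array spread as a covariate it was at 0.66, which met the criterion, and 0.46, which did not. Ahr was higher by 0.61 and 0.63, and was at 0.49 and 0.50 with array spread as a covariate, which met the criterion in neither. It also missed it in both comparisons with quantile normalization (0.52 and 0.48), with array weights (0.52 and 0.52) or without control replicate 4 (0.49 and 0.51). Ppara was at 0.44 with naproxen and was higher by 0.67 with NO-naproxen. With the covariate it was at 0.18 with naproxen and 0.39 with NO-naproxen. The NO-naproxen difference of Ppara also missed the criterion with quantile normalization (0.50), and without NO-naproxen replicate 2 (0.46) or control replicate 4 (0.52). Its naproxen difference met the criterion without control replicate 1 (0.65). Nr1i2, the pregnane X receptor, was at 0.29 and 0.19 with 95% intervals of -0.12 to 0.70 and -0.22 to 0.59.

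Por, the reductase that feeds electrons to all of these enzymes, was at -0.24 and -0.27, and none of the 7 measured of 8 electron partners met the criterion. None of the 11 measured of 15 genes of heme synthesis and breakdown met it either. Of all probe sets 0.875% were higher and 4.97% lower by it with naproxen, and 1.78% and 2.02% with NO-naproxen. At an unadjusted limma p under 0.05, 2 of these heme genes were higher and 0 lower in each comparison with control. The shares of all probe sets higher at that p were 3.16% with naproxen and 5.49% with NO-naproxen. Hmox1, heme oxygenase, was at 0.40 and 0.56, short of 1.5-fold in each case. Of 13 P450 genes of other families, Cyp7a1, which sets the rate of bile acid production, was lower with naproxen by the criterion at -1.06 ± 0.25 (SE, adjusted p = 0.381), and was -1.15 with array spread as a covariate. Cyp39a1, an oxysterol hydroxylase, was higher with NO-naproxen at 0.60 ± 0.22 (SE, adjusted p = 0.468). Against the naproxen diet, Cyp26a1, a retinoic acid hydroxylase, and Cyp7a1 were higher with NO-naproxen by the criterion, at 0.64 and 0.66. In that comparison 0.427% of all probe sets were higher and 0.144% lower.

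Hepatocyte markers were bright: 10 of 14 were measured and all 10 lay above the receptor range. Their summed intensity was 85672 to 96809 in controls, 84973 to 94735 under naproxen and 89720 to 99143 under NO-naproxen. Among them Tdo2 was higher with naproxen by the criterion, at 0.62. By that criterion 0.875% of all probe sets were higher with naproxen and 1.78% with NO-naproxen. Most markers of Kupffer, endothelial and stellate cells had differences above 0, where 45.9% of all probe sets did with naproxen and 50.1% with NO-naproxen. These marker differences are given without array spread as a covariate. Kupffer cell markers (14 of 15 measured, none within the receptor range) summed to 5983 to 8775 in controls, 6616 to 9514 under naproxen and 6993 to 11044 under NO-naproxen, with median differences of 0.22 and 0.33, and 14 and 13 of the 14 above 0. Ptprc among them was higher with NO-naproxen by the criterion, at 0.67. Sinusoidal endothelial markers (7 of 13) summed to 2381 to 3497, 3303 to 4172 and 3131 to 4350 in the same order of diets, with medians of 0.17 and 0.30 and all 7 above 0 in both comparisons. Stellate cell markers (10 of 13, 1 within the receptor range) summed to 3659 to 5227, 4669 to 5567 and 4623 to 5885, with medians of 0.24 and 0.22, and Rgs5 was higher with naproxen by the criterion, at 0.71. Cholangiocyte markers (5 of 10, 3 within the receptor range) summed to 354 to 417, 337 to 404 and 337 to 396, with medians of -0.04 and -0.16. Pericentral hepatocyte markers (12 of 15 measured), from the zone where most P450 genes are expressed, summed to 27267 to 31632 in controls, 27587 to 33507 under naproxen and 26645 to 34219 under NO-naproxen. Their median differences were 0.04 and 0.04. Nr1i3 and Ahr, given above as regulators, are also on this list and were its 2 genes higher by the criterion in both comparisons. Of the 13 measured periportal markers, Cdh1 was higher with NO-naproxen by the criterion, at 0.62. The part of these cell types in the P450 differences was not tested.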

How the data were processed

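The 12 livers were each hybridised to 1 whole-transcript array; ribosomal RNA had been removed and the targets carried biotin (per the labels' protocols). What the authors deposited are linear intensities of probe sets, made with Affymetrix Expression Console 1.1.1 on build rn4 according to the submitters' processing notes. How probes were summarised and arrays normalized is not stated in the labels. To each intensity 16 was added before log2. One limma 3.58.1 fit (R 4.3.3, lmFit and eBayes, 2-sided) took all 12 arrays with diet as a 3-level factor, with Benjamini-Hochberg adjustment over 19418 probe sets; the study's criterion was applied to the same fit. Groups and replicate numbers came from the labels. All 33 genes had their symbols in the RefSeq gene table.

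Genes named are those past the study's criterion, the 3 smallest p of each family and comparison, the 3 largest control SDs, textbook members, and list genes past the criterion or central to P450 control. Genes and lists were chosen with earlier results of these data known. Alternatives changed the added constant (1, 64), normalization, centring, dim-probe filter, variance model, groups fitted, array weights, array spread, replicate block, fold threshold and each array in turn. The fit was first run on simulated arrays with known changes. Promoters were aligned with Biopython 1.88, and figures drawn with matplotlib 3.10.9 in Python 3.11.15.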

Additional observations from a re-analysis of the deposited data

Results flagged for a closer look

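A single rat stood apart from the other 3 of its diet, by Dixon's test at the 95% level, in 8 of 99 gene and diet groups; chance gives about 1 in 20. In controls, replicate 2 was lowest for Cyp1a2 at 11.61 and for Cyp4x1 at 6.19. In the naproxen group, replicate 1 was highest for Cyp3a23-3a1 at 12.61, replicate 2 lowest for Cyp2u1 at 8.37 and for Cyp4f4 at 10.14, and replicate 3 lowest for Cyp2f4 at 8.88. In the NO-naproxen group, replicate 2 was highest for Cyp2a1 at 13.12 and for Cyp2d4 at 9.78; its array had the widest spread of signals, an interquartile range of 2.62, and the part of that spread in these values was not tested.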

How the results depend on the processing

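Counts past the study's criterion depended on array spread and on single rats. With naproxen the count of 3 became 0 with array spread as a covariate, 0 without the 2 arrays of narrowest spread, 0 at a threshold of 2-fold, and 0 to 4 with 1 array left out (0 without control replicate 3, 1 without naproxen replicate 1). With NO-naproxen the count of 2 became 1 with array spread as a covariate, 0 without those 2 arrays, 1 at 2-fold, 1 with quantile normalization, and 1 to 4 with 1 array left out (1 without control replicate 1, control replicate 3 or NO-naproxen replicate 2, 4 without control replicate 2). The cause was not tested. Counts over all probe sets were also smaller: with naproxen 170 higher and 965 lower became 139 and 193 with the covariate and 114 and 177 without the 2 arrays, and with NO-naproxen 346 and 392 became 144 and 92, and 139 and 76. Median centring raised the median of the 33 genes with naproxen to 0.11, as it raised that of all probe sets from -0.03 to 0.08. None of the 33 genes passed the adjusted threshold in any of 57 combinations of comparison and alternative setting, and no difference past the criterion changed sign. Correlations of same-numbered deviations ran from -0.38 to 0.48. They were not set against those of differently numbered rats, so whether replicate numbers pair the rats was not tested. With the replicate block the counts stayed 3, 2 and 0, and Cyp3a2 stayed at 0.85 and 1.13, as the block does not move the means. Each gene had 1 probe set, so a mean over probe sets could not be run.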
